A study of Homo sapiens with 14 samples.

Results

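The MYC network is a group of transcription factors of the basic helix-loop-helix leucine zipper type that share dimerization partners. The genes described here were taken from a list of 10 symbols, MYC, MYCL, MYCN, MAX, MXD1, MXD4, MXI1, MNT, MGA and MLX, all of which were among the 58434 gene symbols of the read count data. For a contrast by size the list was divided into 8 short factors and the 2 long factors MGA and MNT. Of the 10 genes, 9 had enough reads to be tested, and MYCN had no read in any of the 14 libraries.

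MYC, MYCL and MYCN bind E-box DNA as dimers with MAX and activate genes of growth, ribosome production and metabolism. MXD1, MXD4, MXI1, MNT and MGA also pair with MAX and act largely as repressors, the MXD proteins and MNT through SIN3 corepressors and MGA as a scaffold of a variant Polycomb complex, whereas MLX is the partner of the nutrient-responsive factors MLXIP and MLXIPL. The mRNA and protein of MYC are both short-lived, and the network is often deregulated in breast cancer.

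The libraries came from MDA-MB-231, an established human triple-negative breast cancer line, with a doxycycline-inducible shRNA, either against DAP5 (the MB-231-shDAP5 line) or without a target in human cells (the control line MB-231-shNSi). DAP5, encoded by EIF4G2, is a translation initiation factor related to eIF4G. Both lines received doxycycline at 1 µg/ml for 6 days, so the control cells also expressed an shRNA, and both were stable lentiviral lines selected with puromycin and sorted for the red fluorescent reporter of the vector. Each of the 2 cultures of a line gave total mRNA, mRNA from light polysomes (few ribosomes, poorly translated) and mRNA from heavy polysomes (well translated), and the shNSi cultures also gave a moderate polysome pool. In the shDAP5 line the light libraries had light in the title but the moderate pool's code, and the title of its total libraries read total polysome. They were taken as light polysome and total mRNA, and every comparison that uses them rests on this reading. The shDAP5 cultures had no separate moderate pool, so the heavy pools of the 2 lines may not span the same part of the gradient. In comparisons of the lines that use heavy polysomes, an effect of the silencing cannot be told apart from such unequal pooling. Libraries held between 25899838 and 30795910 counts. The replicates were cultures of 1 line each, so p-values measure the spread between such cultures.

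Levels are given as CPM, counts relative to library size after TMM scaling. EIF4G2, the target of the shRNA, had 1391 and 1358 CPM in the total mRNA of the shNSi cultures and 525 and 730.0 CPM in that of the shDAP5 cultures. The target was lower in both silenced cultures than in either control culture in total, light and heavy mRNA, with a log2 change in total mRNA of -1.11 (standard error 0.18, adjusted p = 0.0172 from edgeR). The markers of the line were present, with VIM, CD44, AXL and CAV1 together at 5060 CPM or more in every total mRNA library and VIM the most abundant. Of the markers of luminal breast cells, PGR was at 0 in every library, CDH1 reached at most 8 counts and ESR1 at most 16, and GATA3 lay between 9.10 and 16.9 CPM. PTPRC, a marker of blood cells, had at most 7 counts. Of these markers CD44 had 485 and 623 CPM in shNSi total mRNA and 187 and 308 CPM in shDAP5 total mRNA. CD44, VIM and AXL were each lower in both shDAP5 cultures than in either shNSi culture, while CAV1 overlapped between the lines (log2 change 0.10). By edgeR 0 of the 4 markers were called in total mRNA, where 0.267% of 14992 genes were lower and 0.0867% higher. An unadjusted p under 0.05 was found for 3 of the markers, all lower, and for 1799 of all genes. In heavy polysomes 2 of the 4 were called lower, CD44 at -1.94 (adjusted p = 0.0000322) and VIM at -1.35 (adjusted p = 0.00559), where 16.7% of 14270 genes were lower. CAV1 was at 0.63 there and not called. The part of such line differences in the results below was not tested. In bulk samples, a smaller number of cells that express a gene cannot be told apart from less of its RNA per cell.

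All 10 genes encode a run of 9 codons that opens with a histidine codon, has a glutamate codon at its centre and closes on a pair of arginine codons, the part of the basic region with which these proteins contact the E-box. The same codon pattern occurred in 141 of 19907 coding genes (0.708%), counted over 1 transcript per gene. It is shown for short and long members, since it is what the longest of them shares with the others. The sequences are from GENCODE v29 transcripts on GRCh38, read in the coding direction, from the minus strand for MAX, MYCL, MXD4 and MNT and the plus strand for MGA and MLX. Capitals mark the central glutamate codon.
MAX: cataatgcactgGAAcgaaaacgtagg
MYCL: cacaacttcctgGAGcgcaagaggcgg
MXD4: cacaacgagctaGAAaagcacagacga
MNT: cacaacaaattgGAGaagaacaggagg
MGA: cacactgccaatGAGcggcggcggcgt
MLX: cacactcaggctGAGcagaagaggagg
Of the 9 encoded residues, MAX shared 8 with MYCL, 7 with MYC and with MYCN, and 6 with MNT and with MGA. MNT shared 8 with MXI1 and 7 with MXD1 and with MXD4. MGA shared 5 with MYC and with MLX and 4 with MNT. The histidine, the glutamate and the pair of arginines defined the run, so 4 identical residues are the least that any pair could share. The run began at residue 28 of the MAX protein and at residue 2428 of the MGA protein, 79.2% of the way along the MGA coding sequence.

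The coding sequences differed widely in length. They measured 480 nucleotides in MAX, 627 in MXD4, 663 in MXD1, 684 in MXI1, 894 in MLX, 1092 in MYCL, 1362 in MYC, 1392 in MYCN, 1746 in MNT and 9195 in MGA. MNT was therefore the longest of the repressors that use SIN3 but much nearer to MYC than to MGA, and MGA alone lay in the longest 10% of the genes tested for heavy translation efficiency, which began at 3510 nucleotides. On GRCh38, MGA occupies positions 41621224 to 41773081 of chromosome 15, plus strand, with 24 exons in the transcript used, and MNT on chromosome 17 from 2384060 to 2401118 on the minus strand, with 6 exons. MAX lies on chromosome 14 from 65006174 to 65102695 on the minus strand and overlaps FNTB on the opposite strand, and MLX on chromosome 17 from 42567068 to 42573239 on the plus strand overlaps PSMC3IP on the opposite strand. MXD4 lies on chromosome 4 from 2247432 to 2262294 on the minus strand and MXI1 on chromosome 10 from 110207605 to 110287365 on the plus strand. MXD1, on chromosome 2 from 69897688 to 69942945 on the plus strand, overlaps SNRNP27 on its own strand. A tag in the name of the count file may stand for counting by strand. If reads were not counted by strand, the values of MAX and MLX may hold reads of those neighbours, and those of MYCL, MXI1, MNT and MGA reads of noncoding genes on the opposite strand. MXD1 shares its strand with its neighbour.

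Between genes, levels were compared per kilobase of mRNA, with the length of 1 transcript per gene. In shNSi total mRNA MYC was highest, at 90.5 ± 1.14 CPM per kilobase (SD, n = 2), followed by MLX at 64.9 ± 0.0883 and MAX at 61.1 ± 1.12. The repressors formed a lower tier, with MXD4 at 5.30 ± 0.200, MXI1 at 4.70 ± 1.73, MNT at 4.36 ± 0.593, MGA at 3.01 ± 0.759 and MXD1 at 1.82 ± 0.141 CPM per kilobase. MYCL was at 0.497 ± 0.0475. Within the lower tier, MXI1 (3.48 and 5.93 CPM per kilobase) could not be ranked against MXD4 or MNT, as its cultures spanned both, while both cultures of MXD4 were above both of MNT. MYC, MLX, MAX, MXD1 and MYCL each stood apart from their neighbours in this order. MGA, with cultures at 2.48 and 3.55 CPM per kilobase, overlapped MXI1 but not MNT.

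MYCN, the neuroblastoma paralogue, was at 0 counts in all 14 libraries, which allows a level of at most between 0.0974 and 0.116 CPM in a library (3 counts of its total, without TMM scaling). This limit covers counting error only. MYCL, the paralogue first found in lung cancer, had between 11 and 48 counts per library, so its fold changes rest on few reads.

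**Figure D1:**
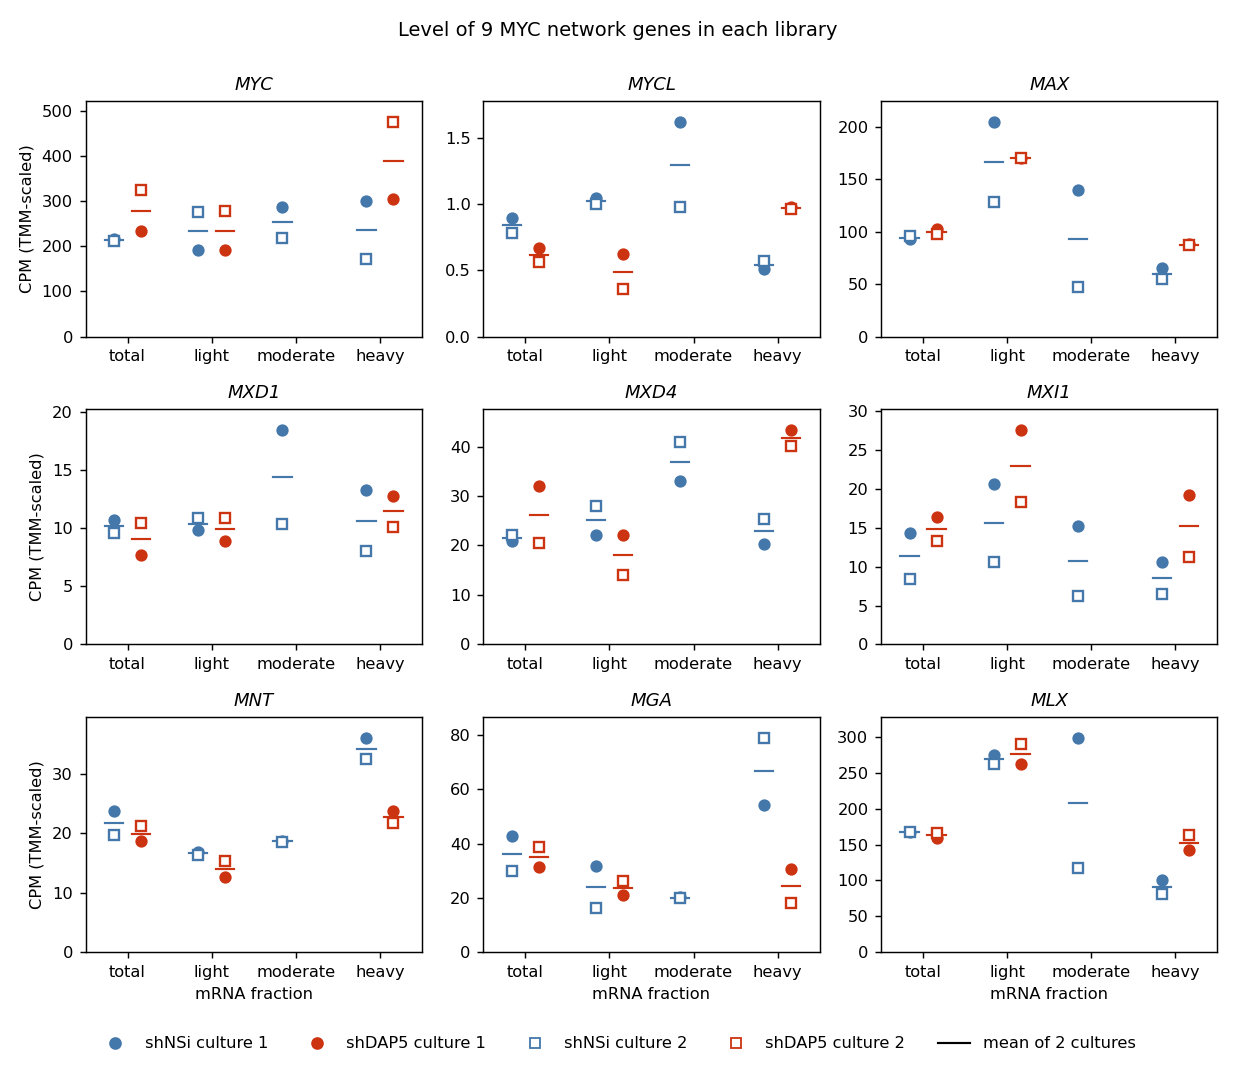
Level of 9 MYC network genes in each of 14 libraries, as TMM-scaled CPM on linear axes that start at 0, by mRNA fraction (columns), line (blue shNSi, red shDAP5) and culture (filled circle culture 1, open square culture 2), with bars at the mean of 2 cultures. In heavy polysomes both shDAP5 cultures lie below both shNSi cultures for MGA and MNT and above them for every other gene except MXD1. Of these genes MAX, MYCL and MNT were not called there by edgeR, and the share of all genes without overlap was not determined.

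In total mRNA, which measures abundance alone, none of the 9 genes tested passed an adjusted p of 0.05 in either direction, against 0.267% of 14992 genes lower and 0.0867% higher in MB-231-shDAP5 cells. One gene, MYC, had an unadjusted p under 0.05, as had 1799 of all genes. DESeq2 called 0 of the 9 and 273 of all genes, and limma 0 and 5. Unless another tool is named, p-values are from the quasi-likelihood test of edgeR, adjusted by Benjamini-Hochberg across every gene tested. With 2 cultures against 2, the smallest two-sided p of an exact permutation test is 0.333, and the tests therefore draw on the spread across genes. MYC had 216 and 212 CPM in shNSi total mRNA and 233 and 324 CPM in shDAP5 total mRNA. Both shDAP5 cultures were higher, 1 of them only slightly, and the log2 change was 0.40 (standard error 0.19, adjusted p = 0.409). MGA had 42.7 and 29.8 CPM in shNSi and 31.4 and 38.8 CPM in shDAP5 total mRNA, with the groups overlapping and a log2 change of -0.02 (standard error 0.23). The median log2 change of the 9 genes was -0.02, and that of all genes 0.01. The largest values on either side were those of MXI1 at 0.41 and MYCL at -0.43.

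In heavy polysomes 5 of the 9 genes passed the adjusted threshold. One was lower, MGA, where 16.7% of 14270 genes were lower, and 4 were higher, MYC, MXD4, MXI1 and MLX, where 14.2% were higher. The median log2 change of the 9 was 0.91 and that of all genes 0.09. With the shNSi moderate pool as control instead, none of the 9 was called, and the genes called fell from 4414 to 50.

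Of the activators, MYC had 299.5 and 171 CPM in the heavy polysomes of the shNSi cultures and 304 and 474 CPM in those of the shDAP5 cultures. The groups did not overlap, but the higher shNSi culture and the lower shDAP5 culture had nearly the same level. The log2 change was 0.91 (standard error 0.36, adjusted p = 0.0420). Leaving out shNSi culture 2 gave 0.53 (adjusted p = 0.415), leaving out shDAP5 culture 2 gave 0.52 (adjusted p = 0.487) and leaving out shDAP5 culture 1 gave 1.16 (adjusted p = 0.0571). In each of these fits the lone culture was assumed to vary like the other line. The MYC call was also lost with DESeq2, at 0.84 (adjusted p = 0.0674), and held in 5 of 15 alternatives. MYCL had 11 and 12 counts in shNSi heavy polysomes and 28 and 25 in shDAP5 heavy polysomes, with a log2 change of 1.02 whose standard error was 0.58 (adjusted p = 0.167). Its counts in the shDAP5 cultures were higher in heavy polysomes and lower in light polysomes, where it had 31 and 29 counts in shNSi and 20 and 11 in shDAP5 cultures.

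MAX, the common partner, had 65.0 and 54.7 CPM in shNSi heavy polysomes and 87.8 and 86.9 CPM in shDAP5 heavy polysomes. The shDAP5 cultures lay close together and above both controls, with a log2 change of 0.73 (standard error 0.33) that did not pass the threshold (adjusted p = 0.0752). With library sizes left unscaled the MAX value was 0.97 (adjusted p = 0.0351), and by limma on quantile-normalized values 0.86 (adjusted p = 0.0337), so its side of the threshold changed with the normalization, and its adjusted p over all alternatives ran from 0.0337 to 1.

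Among the MAX-binding repressors, MXD4 had 20.4 and 25.4 CPM in shNSi heavy polysomes and 43.3 and 40.2 CPM in shDAP5 heavy polysomes. Its groups were well apart, with a log2 change of 1.05 (standard error 0.33, adjusted p = 0.0101). MXI1 had 10.6 and 6.49 CPM in shNSi and 19.2 and 11.3 CPM in shDAP5 heavy polysomes, a narrow separation with a log2 change of 1.01 (standard error 0.36, adjusted p = 0.0232). The call of MXD4 was lost without shNSi culture 1, at 0.81 (adjusted p = 0.144), without shDAP5 culture 1, at 0.95 (adjusted p = 0.0827), and without shDAP5 culture 2, at 1.07 (adjusted p = 0.125). That of MXI1 was lost without shNSi culture 2, at 0.67 (adjusted p = 0.303), without shDAP5 culture 1, at 0.55 (adjusted p = 0.416), and without shDAP5 culture 2, at 1.32 (adjusted p = 0.120). It was also lost with DESeq2, at 0.94 (adjusted p = 0.06), and with limma, at 0.84 (adjusted p = 0.0606), and held in 4 of 15 alternatives. MXD1, at 13.3 and 8.0 CPM in shNSi and 12.8 and 10.1 CPM in shDAP5 heavy polysomes, overlapped between the lines (log2 change 0.28, adjusted p = 0.576).

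The long repressors had changes of the opposite sign. MGA had 54.3 and 78.9 CPM in shNSi heavy polysomes and 30.7 and 18.2 CPM in shDAP5 heavy polysomes, and every shDAP5 value was well below both controls. Its log2 change was -1.26 (standard error 0.33, adjusted p = 0.00197), a level 2.39-fold lower. Without shNSi culture 2 it was -1.01 (adjusted p = 0.0619) and without shDAP5 culture 2 -0.96 (adjusted p = 0.175), so the call needed both of these cultures. MNT had 36.1 and 32.5 CPM in shNSi and 23.7 and 21.8 CPM in shDAP5 heavy polysomes. The MNT groups did not overlap either, but the log2 change of -0.41 (standard error 0.33) did not pass the threshold (adjusted p = 0.353), with an interval of 2 standard errors from -1.07 to 0.26. With library sizes left unscaled the median of all genes in heavy polysomes moved from 0.09 to 0.34, with 1139 genes lower and 2504 higher instead of 2390 and 2024, and MGA was at -0.99 (adjusted p = 0.0591). The values of MNT over the alternatives ran from -0.59 to 0.29.

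MLX, the partner of the glucose-sensing factors, had 101 and 81.0 CPM in shNSi heavy polysomes and 142 and 163 CPM in shDAP5 heavy polysomes. The shDAP5 cultures were both higher, with a log2 change of 0.93 (standard error 0.33, adjusted p = 0.0228). Leaving out any 1 culture ended this call, with values of 1.01 (adjusted p = 0.0548) and 0.74 (adjusted p = 0.203) without shNSi cultures 1 and 2, and of 0.99 (adjusted p = 0.0892) and 0.80 (adjusted p = 0.217) without shDAP5 cultures 1 and 2.

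**Figure D2:**
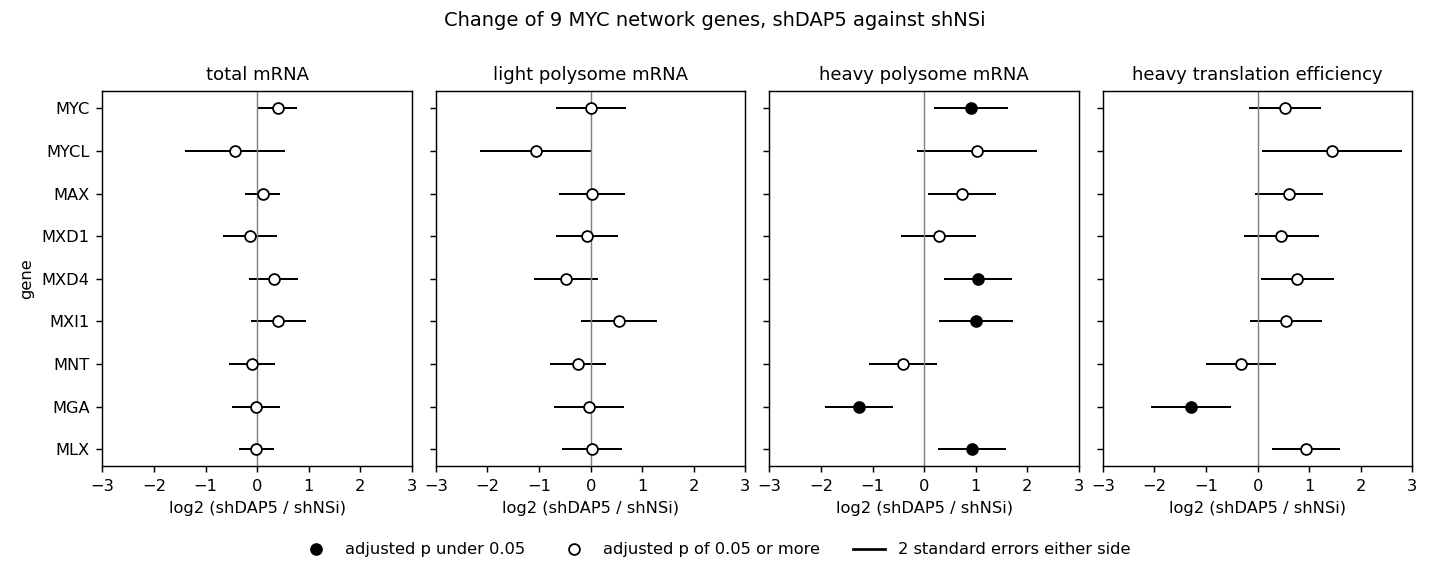
Fitted log2 change of 9 MYC network genes, shDAP5 against shNSi, in total mRNA, light polysome mRNA, heavy polysome mRNA and heavy translation efficiency, with bars of 2 standard errors either side and filled points for an adjusted p under 0.05. MGA is at -1.26 in heavy polysomes and -1.29 in heavy translation efficiency, and MYC, MXD4, MXI1 and MLX are the filled points on the right, in heavy polysomes only.

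In light polysomes, 0 of the 9 genes and 0% of 15529 genes passed the adjusted threshold with edgeR. At an unadjusted p under 0.05 there were 0 of the 9 and 1330 of all genes, DESeq2 called 0 of the 9 and 105 of all genes, and limma 0 of both. MGA had 31.9 and 16.4 CPM in shNSi light polysomes and 21.1 and 26.2 CPM in shDAP5 light polysomes, so the shDAP5 cultures fell between the controls (log2 change -0.04, standard error 0.34). MXD4 had 22.2 and 28.0 CPM in shNSi and 22.1 and 13.96 CPM in shDAP5 light polysomes. This is the reverse of its order in heavy polysomes, but culture 1 of either line had nearly the same level. The log2 change of MXD4 was -0.48 (standard error 0.31, adjusted p = 0.668). Without shNSi culture 1, MXD4 was called at -0.66 (adjusted p = 0.0182) and MXI1 at 1.09 (adjusted p = 0.000183), in a fit that called 2637 of 16190 genes lower and 2041 higher. The median of the 9 genes was -0.04 and that of all genes -0.01.

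Translation efficiency, the change in a polysome fraction relative to total mRNA of the same culture, gave 1 call among the 9 genes in the heavy fraction. MGA was lower, where 8.23% of 15374 genes were lower, and 0 were higher, where 4.85% were higher. Another 3 genes were higher at an unadjusted p under 0.05, MYCL, MXD4 and MLX, as were 2069 of all genes, and of the 3 DESeq2 called 1, MLX, and limma 0. For MGA the heavy polysome level divided by the total level was, in log2, 0.34 and 1.40 in the shNSi cultures and -0.04 and -1.09 in the shDAP5 cultures. All shDAP5 values were lower, but the cultures of either line were farther apart than the nearest cultures of different lines. The log2 change was -1.29 (standard error 0.39, adjusted p = 0.0282). Without shNSi culture 2 it was -0.76 (adjusted p = 0.663) and without shDAP5 culture 2 -0.80 (adjusted p = 0.220), so the call rested on these cultures. With library sizes left unscaled the median of all genes moved from 0.09 to 0.30 and MGA was at -1.07 (adjusted p = 0.148), and by limma it was at -1.18 (adjusted p = 0.0764).

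The heavy to total ratio of MLX was -0.73 and -1.05 in the shNSi cultures and -0.17 and -0.02 in the shDAP5 cultures, on the log2 scale. The groups were apart, and the log2 change of 0.94 (standard error 0.33) lay just beyond the threshold (adjusted p = 0.0511). Without shDAP5 culture 1, MLX passed it at 1.04 (adjusted p = 0.0287) and MXD4 at 1.06 (adjusted p = 0.0134), in a fit that called 2062 of 15845 genes higher. MYC had log2 ratios of 0.47 and -0.31 in shNSi cultures and 0.38 and 0.55 in shDAP5 cultures, which overlapped, with a change of 0.53 (standard error 0.35, adjusted p = 0.313). The changes of the remaining short factors were 1.44 for MYCL (standard error 0.68), 0.77 for MXD4, 0.61 for MAX, 0.55 for MXI1 and 0.46 for MXD1, all positive and none past the threshold. MNT was at -0.32 (standard error 0.34, adjusted p = 0.560). The median of the 9 genes was 0.55 and that of all genes 0.09. Light translation efficiency gave 0 calls among the 9 genes and 0% of 15967 genes with edgeR, and DESeq2 and limma also gave 0. The only one of the 9 with an unadjusted p under 0.05 was MXD4, at a log2 change of -0.76 (standard error 0.21, adjusted p = 0.879), against 833 of all genes. Without shNSi culture 1, MXD4 was called at -0.88 (adjusted p = 0.00246) and MYC at -0.62 (adjusted p = 0.0252), in a fit that called 1236 of 16467 genes lower and 794 higher.

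The ratio of heavy to light polysome mRNA places each transcript along the gradient without reference to total mRNA. In the control line, 2 of the 9 genes were higher in heavy polysomes, MGA and MNT, where 34.7% of 16235 genes were, and 3 were lower, MAX, MXI1 and MLX, where 30.5% were. The log2 ratio of MGA was 0.77 and 2.26 in the shNSi cultures, and that of MNT 1.09 and 0.99. Both long factors were thus on the heavy side in each control culture, with fitted log2 ratios of 1.52 for MGA (standard error 0.31, adjusted p = 0.000273) and 1.04 for MNT (standard error 0.22, adjusted p = 0.000359). MLX, at -1.45 and -1.70, and MAX, at -1.65 and -1.23, were on the light side in both cultures, with fitted values of -1.58 and -1.43. MXI1 had a fitted value of -0.83 and MYCL of -0.92, the latter short of the threshold (adjusted p = 0.0730). MYC was not on 1 side, with log2 ratios of 0.65 in shNSi culture 1 and -0.69 in shNSi culture 2. MXD1 likewise stood at 0.43 and -0.45, and MXD4 at -0.12 and -0.14. Without shNSi culture 2 MGA was at 0.64 (adjusted p = 0.151), and without shNSi culture 1 MXI1 was at -0.81 (adjusted p = 0.0519) and MYC was called at -0.79 (adjusted p = 0.0314). With library sizes left unscaled the median of all genes moved from -0.03 to -0.60, with 7282 genes lower and 3937 higher instead of 4948 and 5636, and MNT was at 0.47 (adjusted p = 0.0697).

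In the DAP5-silenced line, 2 of the 9 genes were higher in heavy than in light polysomes, MXD4 and MNT, where 24.6% of 16235 genes were, and 3 were lower, MAX, MXI1 and MLX, where 22.6% were. MGA had log2 ratios of 0.54 and -0.52 in the shDAP5 cultures, with a fitted value of 0.04 (standard error 0.31, adjusted p = 0.916). MNT remained on the heavy side, at 0.90 and 0.50. MXD4 was at 0.97 and 1.53, the highest fitted value of the 9 at 1.25 (adjusted p = 0.000248). MAX was at -0.96 and -0.97 and MLX at -0.88 and -0.83. Without shDAP5 culture 1 the calls of MAX (-0.97, adjusted p = 0.154), MXI1 (-0.69, adjusted p = 0.141), MNT (0.50, adjusted p = 0.244) and MLX (-0.82, adjusted p = 0.230) were lost. Without shDAP5 culture 2 the same 4 were lost, MAX at -0.95 (adjusted p = 0.162), MXI1 at -0.51 (adjusted p = 0.260), MNT at 0.91 (adjusted p = 0.0532) and MLX at -0.87 (adjusted p = 0.203). Without TMM scaling the median of all genes moved from 0 to -0.23, with 4676 genes lower and 2869 higher instead of 3663 and 3991, and MNT was at 0.47 (adjusted p = 0.0958).

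**Figure D3:**
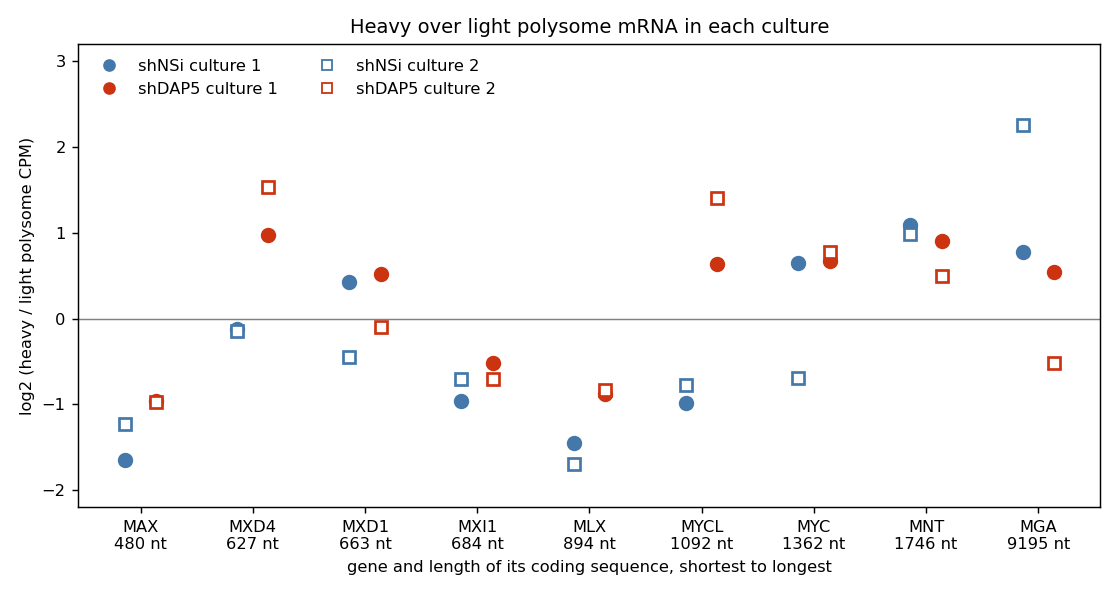
Log2 ratio of heavy to light polysome CPM in each culture (blue shNSi, red shDAP5, filled circle culture 1, open square culture 2), with the genes ordered by the length of their coding sequence. MGA moves from 0.77 and 2.26 in shNSi to 0.54 and -0.52 in shDAP5 cultures, and MXD4 and MYCL lie above 0 only in shDAP5 cultures.

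The difference between the lines in this ratio was tested as an interaction. MGA was lower, where 12.4% of genes were lower, and MYCL and MXD4 were higher, where 4.70% were higher. The log2 difference was -1.48 for MGA (standard error 0.44, adjusted p = 0.0257), 1.91 for MYCL (standard error 0.61, adjusted p = 0.0366) and 1.39 for MXD4 (standard error 0.32, adjusted p = 0.00779). MYCL went from log2 ratios of -0.99 and -0.78 in shNSi cultures to 0.64 and 1.40 in shDAP5 cultures, with as few as 11 counts in a library. For MNT the difference was -0.34 (standard error 0.31, adjusted p = 0.497), for MYC 0.75 (adjusted p = 0.239) and for MLX 0.73 (adjusted p = 0.246). Without shNSi culture 2, or without shDAP5 culture 2, none of the 9 genes passed the threshold, and no gene at all did. MGA was then at -0.61 (adjusted p = 0.413) and -0.98 (adjusted p = 0.436), and MXD4 at 1.49 (adjusted p = 0.0746) and 1.11 (adjusted p = 0.239). MYCL lost its call whichever culture was left out, with values from 1.57 to 2.34, and without shNSi culture 1 MYC was called at 1.49 (adjusted p = 0.0153). With library sizes left unscaled the median of all genes moved from -0.04 to 0.30, with 895 genes lower and 1748 higher instead of 2014 and 763, and MGA was at -1.13 (adjusted p = 0.0940). The heavy, heavy translation efficiency and heavy over light comparisons share the heavy libraries, and their values for a gene are not separate evidence.

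The short and long factors were then compared culture by culture. The median log2 ratio of heavy to light mRNA of the 7 short factors with reads was -0.96 and -0.71 in the shNSi cultures and 0.52 and -0.10 in the shDAP5 cultures. MGA exceeded that median by 1.73 and 2.97 in the shNSi cultures and by 0.02 in shDAP5 culture 1, and was at -0.42 from it in shDAP5 culture 2. MNT exceeded it by 2.05 and 1.70 in the shNSi cultures and by 0.38 and 0.60 in the shDAP5 cultures. The distance between short and long factors was thus smaller in each shDAP5 culture than in either shNSi culture. The short median was higher, and the ratios of MGA and of MNT were lower, in both shDAP5 cultures than in either shNSi culture. Single short factors ranged from -1.65 to 0.65 and from -1.70 to -0.14 in the shNSi cultures, below both long factors. In the shDAP5 cultures they ranged from -0.96 to 0.97 and from -0.97 to 1.53, and both long factors lay within these ranges.

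Values of all genes varied with coding length in the same comparisons, though for heavy over light in shDAP5 cultures the median rose only up to middle lengths. Across genes, which are not independent replicates, Spearman's rho with coding length was 0.64 for heavy over light in shNSi cultures, 0.29 in shDAP5 cultures and -0.71 for heavy translation efficiency. In the longest 10% of genes, where MGA lies, the median log2 ratio of heavy to light was 1.54 in shNSi and 0.26 in shDAP5 cultures, beside 1.52 and 0.04 for MGA. The median change in heavy translation efficiency of those genes was -0.92, beside -1.29 for MGA, and 34.1% of them were called lower. In the shortest 10%, of at most 549 nucleotides, where MAX lies, the median was 0.87, beside 0.61 for MAX. With offsets for coding length fitted in each library, MGA was at -0.37 in heavy translation efficiency (adjusted p = 0.449) and at -0.26 in heavy polysomes (adjusted p = 0.532). For heavy over light in shNSi cultures it was at -0.02 (adjusted p = 0.924). None of the 9 genes was then called in heavy polysomes, where 1419 of 12136 genes were. None was called in heavy translation efficiency, where 385 of 12480 genes were, or in the difference in heavy over light, where 760 of 12741 were. MYC did not shrink in heavy polysomes, at 0.91 without offsets and 0.98 with them (adjusted p = 0.0573 with offsets). MYCL shrank little in the difference in heavy over light, from 1.91 to 1.78 (adjusted p = 0.0695 with offsets). For heavy over light in shNSi cultures these offsets also ended the calls of MNT (0.23, adjusted p = 0.271), MAX (-0.08, adjusted p = 0.760) and MXI1 (-0.07, adjusted p = 0.801). MXD1 (0.83, adjusted p = 0.00727) and MXD4 (0.81, adjusted p = 0.00180) were then called higher, and MYC (-0.58, adjusted p = 0.0429) and MYCL (-1.13, adjusted p = 0.0258) lower. In shDAP5 cultures the offsets ended the calls of MNT (0.32, adjusted p = 0.135), MAX (-0.33, adjusted p = 0.209) and MXI1 (-0.40, adjusted p = 0.101).

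**Figure D4:**
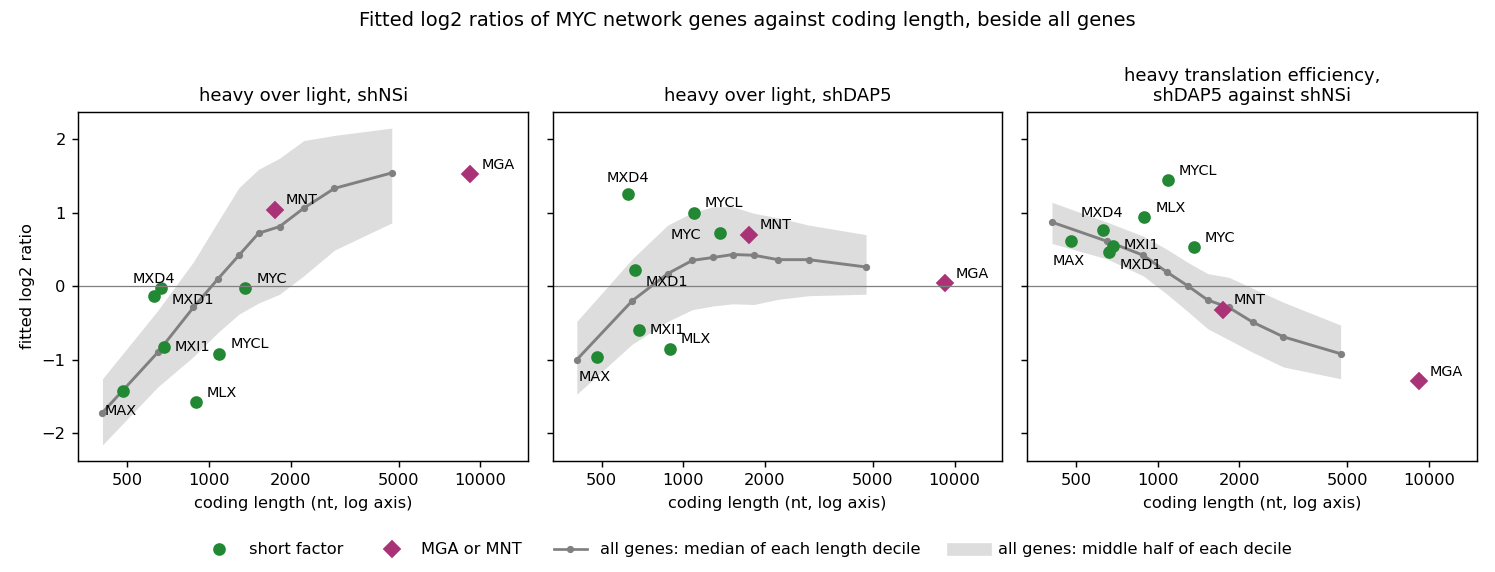
Fitted log2 ratio of heavy to light mRNA in shNSi and in shDAP5 cultures, and log2 change in heavy translation efficiency, against coding length on a log axis, with short factors as green circles, MGA and MNT as purple diamonds, and the median (grey line) and interquartile range (shading) of all genes in 10 groups by coding length. MGA, at 1.52, 0.04 and -1.29, lies near the longest 10% of genes, whose medians are 1.54, 0.26 and -0.92.

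The moderate pool was available for the control line only. Against heavy polysomes of the same cultures, MGA and MNT were lower in the moderate pool, where 24.1% of 16235 genes were, and MYCL, MXD4 and MLX were higher, where 13.1% were. MGA had 20.4 and 19.9 CPM in the moderate pools, below its heavy levels of 54.3 and 78.9 CPM and close to the 30.7 and 18.2 CPM of the shDAP5 heavy libraries. Its log2 ratio of moderate to heavy was -1.75 (standard error 0.31, adjusted p = 0.000164) and that of MNT -0.87 (standard error 0.22, adjusted p = 0.00359). Without shNSi culture 1 only MGA was called, with MNT at -0.72 (adjusted p = 0.114), MYCL at 0.86 (adjusted p = 0.394), MXD4 at 0.78 (adjusted p = 0.114) and MLX at 0.62 (adjusted p = 0.130). Without shNSi culture 2 MXD4 was at 0.82 (adjusted p = 0.0623) and MAX was called at 1.23 (adjusted p = 0.00494). Without TMM scaling the median of all genes moved from 0.05 to 0.45, and MNT was at -0.47 (adjusted p = 0.0925). With length offsets MGA was at -0.28 (adjusted p = 0.219), MNT at -0.32 (adjusted p = 0.168) and MXD4 at 0.01 (adjusted p = 0.981), and none of these was called. The shNSi moderate pools of MAX differed widely, at 140 and 47.2 CPM, as did those of MLX, at 299 and 117 CPM. When the moderate pool was the control for shDAP5 heavy polysomes, none of the 9 genes was called, and of all 14539 genes 24 were lower and 26 higher. MGA was then at 0.29 and MLX at -0.44. When the heavy and moderate counts of each shNSi culture were summed, none was called either, where 337 of 15184 genes were lower and 84 higher, with MGA at -0.62 (adjusted p = 0.489).

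Of the other network genes, MXD3, a further MXD repressor, had 7.51 and 8.90 CPM in shNSi heavy polysomes and 16.3 and 29.5 CPM in shDAP5 heavy polysomes. Both silenced cultures were higher, and the fitted log2 change was 1.67 (standard error 0.36, adjusted p = 0.000108), or 1.14 without shDAP5 culture 2 (adjusted p = 0.135). In heavy translation efficiency it was called at 1.13 (adjusted p = 0.0328), and the call was lost without shNSi culture 1 (1.21, adjusted p = 0.225), shNSi culture 2 (1.01, adjusted p = 0.612) or shDAP5 culture 2 (0.69, adjusted p = 0.245). It was called in 3 of 15 alternatives, and length offsets gave 0.46 (adjusted p = 0.398). In heavy polysomes MXD3 was at 0.91 with length offsets (adjusted p = 0.0734), at 0.16 with the moderate pool as control (adjusted p = 1) and at 0.67 with summed pools (adjusted p = 0.453), and was not called in these fits. It thus changed in the direction of MXD4 and MXI1. MLXIP, the more abundant of the MLX partners, overlapped between the lines in heavy polysomes, with a log2 change of 0.08 (adjusted p = 0.879). MLXIPL had between 4 and 45 counts per library and did not pass the threshold in heavy polysomes (adjusted p = 0.384).

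Of 16 cofactors of MYC and MAX proteins, 4 were lower and 0 higher in heavy translation efficiency, where 8.23% of all genes were lower and 4.85% higher, with a median of -0.69, and the 8 with an unadjusted p under 0.05 were all lower, beside 2495 lower and 2069 higher of all 15374 genes. BPTF, a chromatin remodelling subunit that binds MYC, had the lowest called value at -1.42 (standard error 0.44, adjusted p = 0.0395), and WDR5, a chromatin scaffold for MYC, the highest value at 0.37 (adjusted p = 0.483). Over all genes these values fell with coding length, and 34.1% of the longest 10% were lower, with a median of -0.92. BPTF, with 8895 coding nucleotides, is among those, and WDR5 has 1002. The part of coding length in the counts of this list and of those below was not tested. Of 12 genes that control the stability of MYC protein, 3 were lower and 1 higher, beside the same shares of all genes. KIAA1524, an inhibitor of the phosphatase PP2A, was at -1.44 (adjusted p = 0.00849) and STUB1, a ubiquitin ligase, at 1.15 (adjusted p = 0.0236). Total mRNA of these genes was called in 0 of 16 and 0 of 12 cases with edgeR, beside 53 of 14992 genes. An unadjusted p under 0.05 was found for 0 of either list and for 1799 of all genes.

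Of 24 genes that MYC is known to activate, 0 were called in total mRNA, where 53 of 14992 genes were. An unadjusted p under 0.05 was found for 4 of the 24 and for 1799 of all genes, and the median of the 24 was -0.15. In heavy translation efficiency, where 8.23% of all genes were lower and 4.85% higher, 2 were lower and 2 higher, with HK2, a hexokinase, at -1.36 (standard error 0.35, adjusted p = 0.0126) and SRM, spermidine synthase, at 1.04 (standard error 0.35, adjusted p = 0.0432). Of 5 genes that MYC is known to repress, 4 could be tested and 0 were called, with 2 at an unadjusted p under 0.05. NDRG1 was lowest at -0.22 and CDKN1A, a cyclin-dependent kinase inhibitor, highest at 0.81 (adjusted p = 0.0931). The MLX targets TXNIP and ARRDC4 were both lower in heavy polysomes, at -1.14 (adjusted p = 0.00602) and -1.06 (adjusted p = 0.0144). In total mRNA they were at -0.81 and -1.10 and not called. Both had an unadjusted p under 0.05 there, as had 1051 of all genes in the lower direction. In heavy translation efficiency they were at -0.40 and 0.04 and not called. Of the 24 activated genes, 5 were lower and 1 higher in heavy polysomes, where 16.7% of all genes were lower and 14.2% higher.

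Among 9381 genes with a mean of at least 10 CPM, those whose log2 CPM over the 14 libraries was most like that of MGA included BPTF and BOD1L1 (Pearson's r = 0.983 and 0.973), with coding sequences of 8895 and 9153 nucleotides beside 9195 for MGA. The 3 most like MYC were BDH1, YTHDF1 and TBP (r = 0.895, 0.889 and 0.885), with 1029, 1677 and 1017 nucleotides. The libraries share cultures and fractions, so these coefficients are descriptions over 14 libraries of 4 cultures.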

How the data were processed

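Read counts of 14 RNA-seq libraries were analysed. The authors deposited whole-number counts per gene symbol, without normalization. The submitters' processing notes name STAR 2.6.0a, limma and genome build hg19, and the name of the count file carries the word featureCounts and the tag rev, which may stand for a reverse-strand setting. Coding lengths, positions and sequences came from GENCODE v29 on GRCh38, with 1 transcript per gene.

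Counts were analysed in R 4.3.3 with edgeR 4.0.16. Genes were filtered with filterByExpr, scaled by TMM and tested with its robust quasi-likelihood test, and p-values were adjusted by Benjamini-Hochberg across every gene tested, with a threshold of 0.05. The lines were compared in 1 fit of 4 libraries per fraction. For translation efficiency the fraction-by-shRNA interaction was fitted to 8 libraries, with a term for each culture, and polysome pools were compared in 1 fit with a term for each culture. Standard errors were derived from the test statistic. The scripts were tested on simulated counts. Levels were scaled over all 14 libraries. Replicate libraries differed by more than counting noise (chi-square per degree of freedom between 30.2 and 246).

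Named genes were the 10 members, EIF4G2, MXD3, MLXIP and MLXIPL, the lowest and highest gene of each list in heavy translation efficiency (called genes first), and the 3 genes most like MYC and MGA, of which 1 is not reported here. MYC-related genes, cofactors and markers were listed by hand, and members and lists were chosen with earlier results of these data known. PECAM1 was not analysed here. Alternatives were DESeq2 1.42.0, no TMM, limma 3.58.1 on quantile-normalized log2 of CPM plus 1, no filter, at least 10 counts in every library, each culture left out, the replicate number as a block, no term for each culture, all libraries in 1 fit, the moderate pool as control and length offsets.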

Additional observations from a re-analysis of the deposited data

Results flagged for a closer look

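The following genes stood out because the ratio of heavy to light polysome mRNA differed between the MB-231-shNSi and MB-231-shDAP5 lines by the test of the difference itself (interaction term in edgeR, p adjusted across every gene tested). The log2 difference was -1.48 for MGA (adjusted p = 0.0257), 1.54 for MXD3 (adjusted p = 0.00883), 1.39 for MXD4 (adjusted p = 0.00779) and 1.91 for MYCL (adjusted p = 0.0366). The call of MXD3 was lost without shNSi culture 2 (1.35, adjusted p = 0.11), without shDAP5 culture 2 (1.01, adjusted p = 0.287), with length offsets (0.88, adjusted p = 0.0978) and without a term for each culture (1.63, adjusted p = 0.0707), all from edgeR. Length offsets also ended the calls of MGA (-0.29, adjusted p = 0.466), MXD4 (0.75, adjusted p = 0.1) and MYCL (1.78, adjusted p = 0.0695 from edgeR). Without a term for each culture MGA was at -1.41 (adjusted p = 0.103), MXD4 at 1.34 (adjusted p = 0.0725) and MYCL at 1.90 (adjusted p = 0.102 from edgeR). None of these was called. The MYCL value rests on between 11 and 31 counts per heavy or light library. Groups of 2 cultures are too small for a check for outlying samples.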

How the results depend on the processing

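Under 13 alternatives no change in total mRNA was called among the 9 genes tested. In heavy polysomes (1 lower, 4 higher as reported) the higher genes numbered 2 with DESeq2, 1 without a filter and 1 with all 14 libraries in 1 fit. Without TMM 0 were lower and 5 higher. With limma the higher genes numbered 4 again, with MAX in place of MXI1. With length offsets, with the moderate pool as control and with both pools summed, 0 were lower and 0 higher, and with length offsets and the replicate block 0 and 1. In heavy translation efficiency (1 lower, 0 higher) 0 were lower without TMM, with limma, with length offsets, with length offsets and the replicate block, without a term for each culture, with the moderate pool as control and with summed pools. There 1 was higher with DESeq2 and 1 with at least 10 counts in every library. In light translation efficiency (0 called) 1 was lower with the moderate pool as control and 1 with summed pools.

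For heavy over light in shNSi cultures (3 lower, 2 higher), 5 were lower and 1 higher without TMM. MYC was also called by limma (-0.66, adjusted p = 0.0343), and MYCL by edgeR with at least 10 counts in every library (-1.08, adjusted p = 0.0221). Without a term for each culture MXI1 was not called by edgeR (-0.87, adjusted p = 0.119). In shDAP5 cultures (3 lower, 2 higher), 1 was higher without TMM, 1 was lower and 1 higher with length offsets, and 0 were lower without a term for each culture. There MYC was also called by DESeq2 (0.70, adjusted p = 0.0266) and MYCL by limma (0.60, adjusted p = 0.0146). Without a filter MYC was called by edgeR (0.79, adjusted p = 0.0346) and MXI1 was not (-0.54, adjusted p = 0.117). For the difference (1 lower, 2 higher), 1 was higher with DESeq2. DESeq2 gave an adjusted p to 12772 of the 16235 genes there, and MYCL had none. Without TMM 0 were lower, and with limma 0 were lower and 1 higher. With length offsets, and without a term for each culture, 0 were lower and 0 higher. For moderate over heavy (2 lower, 3 higher), 1 was lower and 6 higher without TMM, and 0 were lower with length offsets.

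Where the reported or the alternative value was called, the sign reversed with the moderate pool as control for MGA (0.29) and MLX (-0.44) in heavy polysomes and for MGA (0.25) and MXD3 (-0.35) in heavy translation efficiency. With length offsets it reversed for MXD1 (0.83), MXD4 (0.81) and MGA (-0.02) in heavy over light of shNSi cultures. Values that were not called also took both signs over the alternatives, in heavy polysomes for MAX, MYCL, MXD1 and MNT and in heavy translation efficiency for MAX, MXD1, MXD4, MXI1, MNT and MLX. The cause was not tested.

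Leaving out each culture, the lone culture being assumed to vary like the other groups, gave 0 to 1 lower and 0 to 2 higher genes in heavy polysomes, 0 to 1 lower and 0 to 1 higher in light polysomes, 0 to 1 lower and 0 to 2 higher in heavy translation efficiency and 0 to 2 lower in light translation efficiency. For heavy over light there were 1 to 2 higher in shNSi cultures, 0 to 3 lower and 1 to 3 higher in shDAP5 cultures, and 0 to 1 lower and 0 to 2 higher for the difference. For moderate over heavy there were 1 to 2 lower and 0 to 3 higher.

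With the replicate block, 1 member was lower and 3 were higher in heavy polysomes, with MYC at 0.93 (adjusted p = 0.0779 from edgeR). In heavy translation efficiency with the block MGA was at -1.29 (adjusted p = 0.0475 from edgeR), and 688 of all genes were called. Same-numbered cultures shared only a number, with correlations of their deviations of -0.09 in total, 0.04 in heavy and 0.03 in light mRNA, -0.13 in heavy and -0.04 in light translation efficiency. With the numbers crossed, an alternative chosen after seeing the data, 1 member was lower and 2 were higher in heavy translation efficiency, and 4133 of all genes were called.

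Over all alternatives, the number of all genes called ran from 0 to 577 in total mRNA (53 as reported), 2 to 4710 in heavy polysomes (4414), 0 to 4678 in light polysomes (0), 0 to 4515 in heavy (2012) and 0 to 4367 in light translation efficiency (0). It ran from 7367 to 11219 for heavy over light in shNSi cultures (10584), 3264 to 7989 in shDAP5 cultures (7654), 0 to 3366 for the difference (2777) and 2914 to 7671 for moderate over heavy (6040). Among the network genes MYCN had no reads, and MYCL and MLXIPL had at most 48 and 45 counts in a library.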
